A study of Mus musculus with 8 samples.

Results

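Ribosome biogenesis factors are the proteins that transcribe, trim, modify and fold ribosomal RNA and assemble it with ribosomal proteins. The group described here holds 45 genes, given as a list of symbols, among the 34945 named genes of the table, and all 45 were found and had values high enough to be tested. They were measured in AML12, an established hepatocyte line that was derived from mice transgenic for human TGF-alpha and is a single line in culture. The study compared 4 cultures transfected with Casp8 siRNAs (siCasp8) with 4 cultures transfected with a scrambled siRNA (Scr). All 8 were wild-type AML12 cells treated with 40 nM siRNA and a lipid reagent and collected after 48 hours, so siCasp8 cells carry a knockdown and no edited allele. The siRNA sequences are not given in the sources used here. Casp8 encodes the initiator protease of death receptor signalling.

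The nucleolus builds ribosomes in steps that follow each other along the growing RNA. RNA polymerase I makes a long precursor, small nucleolar ribonucleoproteins (snoRNPs) modify its nucleotides, a large particle called the small subunit processome folds and cuts its first part, and separate sets of factors mature the small and the large subunit. The transcription factor MYC is known to drive many of these genes in growing cells, and hepatocytes raise them when they enter the cell cycle, as in liver regeneration.

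Casp8 itself was at 1374, 1431, 1627 and 1489.7 in siCasp8 replicates 1 to 4, against 3936, 3995, 4134 and 3825 in Scr replicates 1 to 4, in the deposited normalized unit (log2 fold change -1.43, limma adjusted p = 5.94e-09). All 4 siCasp8 libraries lay below every Scr library. Estimated depth was 50.5 to 57.1 M reads in siCasp8 and 30.7 to 51.8 M reads in Scr (exact two-sided permutation p = 0.0571, smallest possible 0.0286), so depth and treatment moved together in part, and the part of depth in the results below was tested only through a covariate. All 11 hepatocyte markers on a list were detected; 5 were higher, among them Alb at 3626 ± 249 in siCasp8 and 86.4 ± 10.7 in Scr (SD, n = 4 each), and 2 were lower, and their values summed to 151771 to 155070 in siCasp8 and 141757 to 150255 in Scr. The macrophage genes Adgre1, Clec4f and Marco and the endothelial genes Cdh5 and Lyve1 were listed at 0 in all 8 libraries, but so was Exosc6, an exosome gene that every cell uses, so a listed 0 may be a failed estimate. Other markers of these cells had values, with means in siCasp8 and Scr of 347 and 569 for Csf1r, 152 and 134 for Ptprc, 117 and 117 for Cd68, and 224 and 304 for Pecam1. Of 5 tested cholangiocyte markers, 2 were higher and 2 lower, and their summed value, which is mostly Spp1, was 118272 to 125976 in siCasp8 and 102417 to 111595 in Scr. Summed values were 578 to 654 in siCasp8 and 779 to 848 in Scr for 6 macrophage markers (Csf1r lower of 3 tested), 104 to 183 in siCasp8 and 127 to 180.0 in Scr for 7 stellate cell and fibroblast markers (Des higher and Col1a1 lower of 3 tested), and 178 to 301 in siCasp8 and 186 to 536 in Scr for 6 endothelial markers (1 tested, not called). The part of these cell type markers in the results was not tested, and in such bulk samples fewer cells of a type and less RNA per cell cannot be told apart.

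After Casp8 silencing 26 of the 45 factors were lower and 1 was higher, while 18 did not pass the test. Over all 14154 tested genes 40.2% were called, 20.8% lower and 19.4% higher, by the same rule (limma, Benjamini-Hochberg adjusted p under 0.05). The falls were small. On the log2 scale the members had a median of -0.16, against 0.00 for all tested genes, and the members ranged from -0.45 (Nop10) to 0.13 (Utp3). A log2 change is given here on the log2(value + 1) scale, as siCasp8 minus Scr. Of the 45, 37 had a negative value and 7 were lower by at least 0.3. In 24 members every siCasp8 library lay below every Scr library, a pattern that 19.5% of tested genes showed. The members' values summed to 241058 to 248153 in siCasp8 and to 261313 to 266954 in Scr, so the sum stood at 92.4% of the Scr mean.

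**Figure D1:**
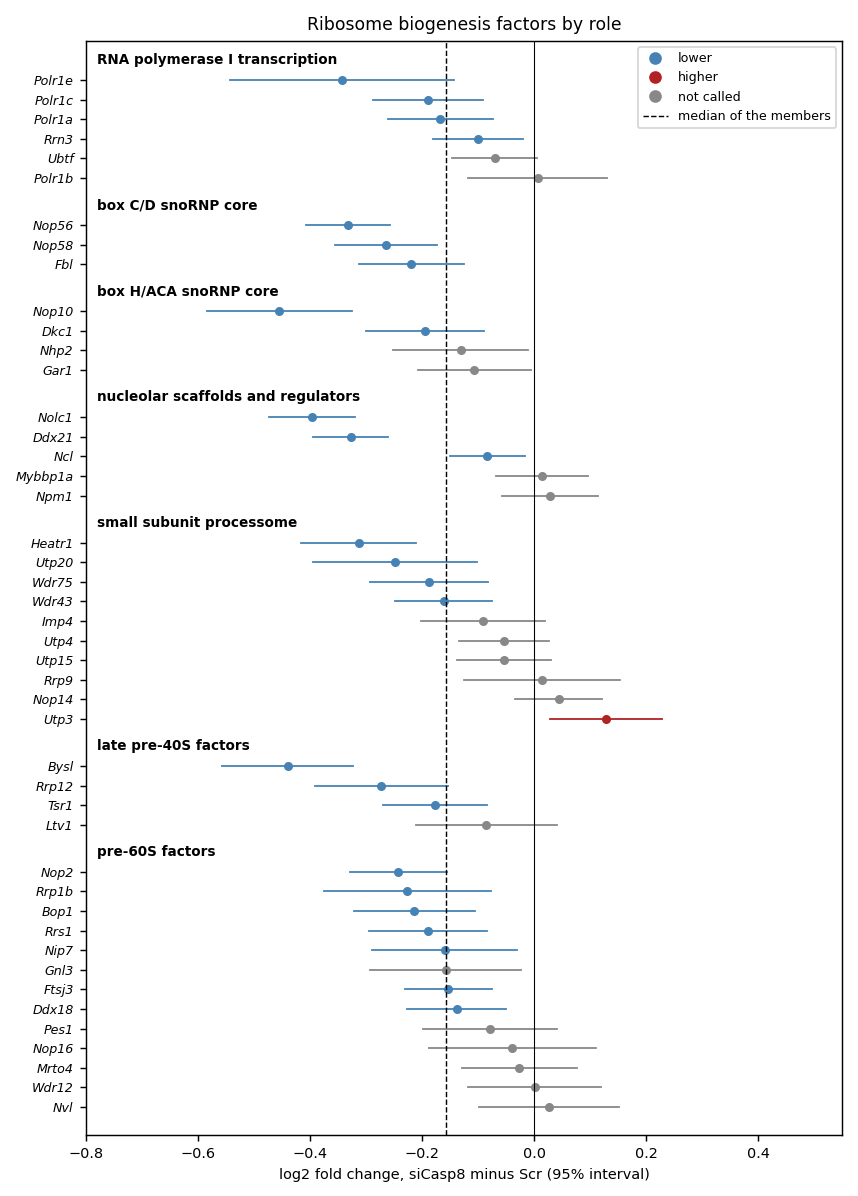
Log2 fold change (siCasp8 minus Scr, horizontal axis) of each of the 45 factors with its 95% interval from limma, ordered within 7 role classes. Blue points were called lower, the red point higher and grey points not called; the dashed line is the members' median of -0.16, and 37 points lie left of 0.

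These calls depended on how libraries were scaled. Upper quartile rescaling divided each library by the upper quartile of its positive values, so genes without a value in a library did not enter. Under it the median over the whole table stood at 0.10 instead of 0.00. There 10 members were lower and 3 higher (Utp3, Npm1 and Nop14), beside 11.8% of all tested genes lower and 4471 of 14154 higher. With estimated depth as a covariate 8 members were lower and none higher, beside 10.4% of all tested genes lower and 1289 of 14154 higher. Those 8 were Nop56, Nop58, Nop10, Nolc1, Ddx21, Heatr1, Bysl and Nop2. Each of the 8 was lower in all 17 alternative analyses, including every one that left out a library, with adjusted p of at most 0.0253. They come from the snoRNP cores, the nucleolar regulators and the particles of both subunits.

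The members from the transcription machinery of RNA polymerase I fell in part, while of 15 other genes of that machinery 2 were lower and 1 higher. Of 6 members 4 were lower: the largest subunit Polr1a, the subunits Polr1c and Polr1e, and Rrn3, the factor that brings the polymerase to its promoter. Polr1c, a subunit that RNA polymerase III also uses, was at 2025, 1934, 1944 and 2039 in siCasp8 replicates 1 to 4, against 2296, 2364, 2111 and 2293 in Scr replicates 1 to 4 (log2 fold change -0.19, SE 0.0451, limma adjusted p = 0.00502). Polr1a was at 6625, 6615, 6085 and 6458 in siCasp8 replicates 1 to 4, against 7421, 7576, 6759.9 and 7214 in Scr replicates 1 to 4 (log2 fold change -0.17, SE 0.0431, limma adjusted p = 0.008). In both genes the groups did not overlap, and Scr replicate 3 was the lowest Scr library. Polr1e averaged 393 ± 43.0 in siCasp8 and 498 ± 41.7 in Scr (SD, n = 4 each), a log2 fold change of -0.34, with siCasp8 replicate 1 above the lowest Scr library. Rrn3 averaged 2252 ± 35.2 in siCasp8 and 2415 ± 49.5 in Scr (-0.10), and its call was lost in each of the 8 analyses without a library (adjusted p 0.0545 to 0.107), and also under upper quartile rescaling (0.999), quantile normalization (0.0830), the depth covariate (0.436), the replicate block (0.0513) and no filter on low values (0.0635). The second-largest subunit, Polr1b, averaged 1848 ± 111 in siCasp8 and 1839.8 ± 116 in Scr, with an interval of -0.12 to 0.13 for its log2 fold change. Ubtf, which opens ribosomal DNA for transcription, had -0.07 (-0.15 to 0.00) and was not called. The calls of Polr1a and Polr1c were lost with upper quartile rescaling and with the depth covariate, that of Polr1e only with the depth covariate, and that of Polr1a also under quantile normalization.

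The 3 members from the box C/D snoRNP core, which carries out 2′-O-methylation of ribosomal RNA, were lower. Snu13, the other core protein gene, is not among the 45 and was not called (-0.11, -0.21 to -0.01, adjusted p = 0.084), with overlapping groups. Nop56, a scaffold of that particle, was at 6414, 6196, 6288 and 6086 in siCasp8 replicates 1 to 4, against 8230.0, 7681, 7819 and 7737 in Scr replicates 1 to 4 (log2 fold change -0.33, SE 0.0345, limma adjusted p = 1.05e-05). Its paralog and partner Nop58 was at 7253, 7491, 7809 and 7391 in siCasp8 replicates 1 to 4, against 8853, 8590.0, 9684 and 8874 in Scr replicates 1 to 4 (log2 fold change -0.26, SE 0.0416, limma adjusted p = 0.000284). No siCasp8 library reached a Scr library in either gene. The methyltransferase gene Fbl averaged 5021 ± 159 in siCasp8 and 5849.7 ± 302 in Scr (-0.22, adjusted p = 0.0014), a call lost with upper quartile rescaling (0.0532) and with the depth covariate (0.0771).

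In the box H/ACA core, which turns uridine into pseudouridine, 2 of 4 genes were lower. Nop10, the smallest protein of that core, showed the largest fall among the 45 members, at 1475, 1576, 1571 and 1386 in siCasp8 replicates 1 to 4, against 2263, 2049, 1993 and 1935 in Scr replicates 1 to 4 (log2 fold change -0.45, SE 0.0591, limma adjusted p = 6.58e-05). Its siCasp8 mean was 72.9% of the Scr mean. The pseudouridine synthase gene Dkc1 was at 2605, 2782, 2879.5 and 2537 in siCasp8 replicates 1 to 4, against 3264, 3054, 2964 and 3084 in Scr replicates 1 to 4 (log2 fold change -0.20, SE 0.0485, limma adjusted p = 0.00648). The groups did not overlap in either gene, although siCasp8 replicate 3 came close to the lowest Scr library for Dkc1, whose call was lost with upper quartile rescaling and with the depth covariate. The RNA-binding protein gene Nhp2 and the core protein gene Gar1 were not called, with log2 fold changes of -0.13 (-0.25 to -0.01) and -0.11 (-0.21 to -0.01), intervals that lie below 0, and the groups of Gar1 did not overlap. Without Scr replicate 3, Nhp2 was called (adjusted p = 0.0289).

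Nucleolar scaffolds and regulators differed in how far they moved. Nolc1, a chaperone that binds snoRNPs and RNA polymerase I, was at 7479.9, 7187, 7244 and 7576 in siCasp8 replicates 1 to 4, against 10126, 9823, 9465 and 9422 in Scr replicates 1 to 4 (log2 fold change -0.40, SE 0.0353, limma adjusted p = 2.9e-06). The helicase gene Ddx21, which acts on ribosomal RNA transcription and on snoRNA binding, was at 7818, 8129.8, 8219.8 and 8200.0 in siCasp8 replicates 1 to 4, against 10146, 10208, 10256 and 10004 in Scr replicates 1 to 4 (log2 fold change -0.33, SE 0.0308, limma adjusted p = 4.58e-06). In both genes the highest siCasp8 library was well below the lowest Scr library, and these were the smallest adjusted p values among the members. Transcripts of the major nucleolar proteins differed less. Nucleolin (Ncl) averaged 46558 ± 439.8 in siCasp8 and 49353 ± 1003 in Scr (-0.08, adjusted p = 0.0446), a call lost in 7 of the 8 analyses without a library and turned to 0.02 by upper quartile rescaling (adjusted p = 0.771). Nucleophosmin (Npm1) averaged 49592 ± 1941 in siCasp8 and 48635 ± 1847 in Scr, with an interval of -0.06 to 0.11, and Mybbp1a, a nucleolar repressor of transcription, had 0.01 (-0.07 to 0.10).

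**Figure D2:**
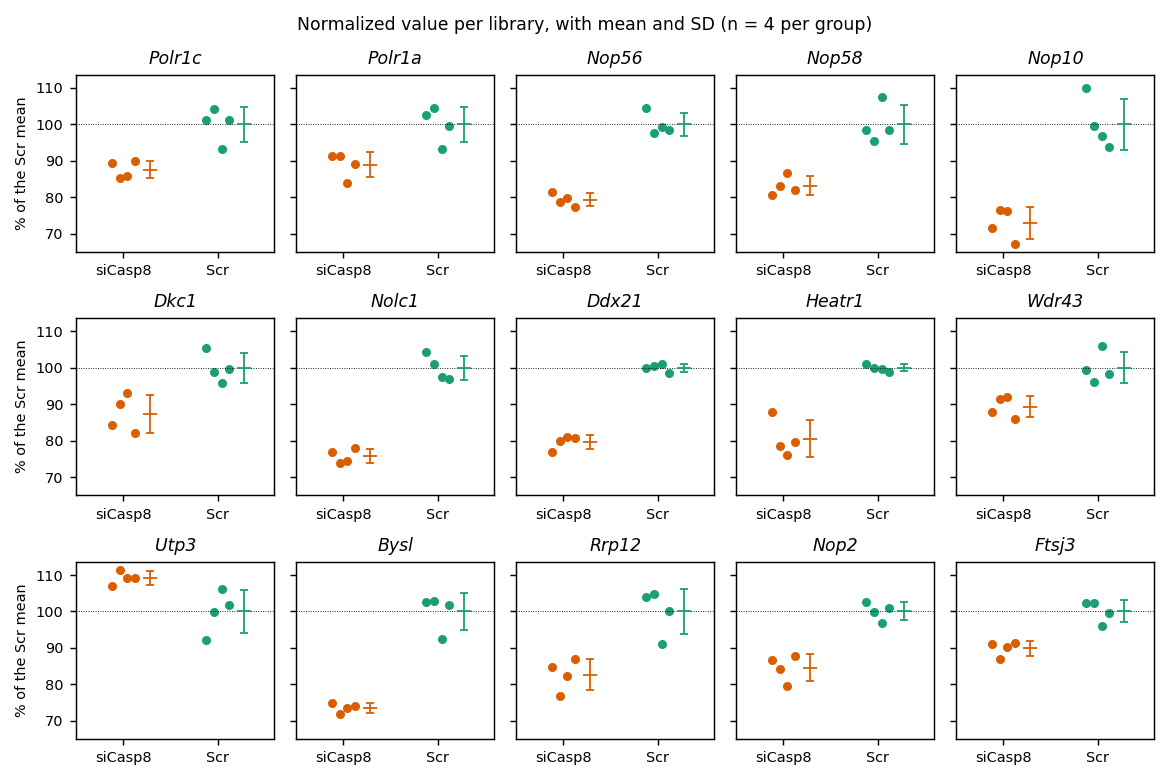
Normalized value of 15 members in every library, as a percent of the gene's Scr mean (vertical axis), with siCasp8 on the left and Scr on the right of each panel; points are libraries and bars the mean and SD of 4. In every panel except that of Utp3 the 4 siCasp8 points lie below the 4 Scr points.

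The small subunit processome held calls in both directions, with 4 of 10 members lower, 1 higher and 5 not called. Heatr1, which joins ribosomal DNA transcription to early processing, was at 2269.6, 2031, 1963 and 2061 in siCasp8 replicates 1 to 4, against 2614, 2587, 2578 and 2555 in Scr replicates 1 to 4 (log2 fold change -0.31, SE 0.0468, limma adjusted p = 0.000193). The Scr libraries lay within a narrow range, and siCasp8 replicate 1 was the highest of its group. Wdr43, a protein of the subcomplex that binds the start of the precursor, was at 4474, 4655, 4681 and 4382 in siCasp8 replicates 1 to 4, against 5065, 4898, 5398 and 5000.1 in Scr replicates 1 to 4 (log2 fold change -0.16, SE 0.0400, limma adjusted p = 0.00635). Its partner Wdr75 had -0.19 and the large scaffold gene Utp20 -0.25. Utp20 lay within 4159 to 4225 in siCasp8 and 4331 to 5664 in Scr. The calls of Wdr43, Wdr75 and Utp20 were lost with upper quartile rescaling and with the depth covariate.

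Utp3 was the single member called higher. It was at 2556, 2663, 2607 and 2609 in siCasp8 replicates 1 to 4, against 2203, 2382, 2537 and 2433 in Scr replicates 1 to 4 (log2 fold change 0.13, SE 0.0459, limma adjusted p = 0.0413). The groups did not overlap, with Scr replicate 3 close to the lowest siCasp8 library. Its call was lost in 7 of the 8 analyses without a library, all but that without Scr replicate 3 (adjusted p up to 0.111), without the filter on low values (0.0575) and with the depth covariate (0.623). Among the members not called, Utp4 and Utp15, of the same early subcomplex as Wdr43, had -0.05 (-0.13 to 0.03) and -0.05 (-0.14 to 0.03). Imp4 had -0.09 (-0.20 to 0.02), the snoRNP protein gene Rrp9 0.01 (-0.12 to 0.15) and the scaffold gene Nop14 0.04 (-0.03 to 0.12).

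Of 4 factors of late small subunit maturation and export, 3 were lower. Bysl, which accompanies the pre-ribosome from the nucleolus to the cytoplasm, was at 757, 725, 741 and 749 in siCasp8 replicates 1 to 4, against 1037, 1039, 934 and 1028 in Scr replicates 1 to 4 (log2 fold change -0.44, SE 0.0539, limma adjusted p = 4.09e-05). Its siCasp8 libraries lay close together, and Scr replicate 3 was the lowest Scr library. Rrp12, an export factor, was at 2026, 1841, 1969 and 2082 in siCasp8 replicates 1 to 4, against 2487, 2505, 2182 and 2398 in Scr replicates 1 to 4 (log2 fold change -0.27, SE 0.0545, limma adjusted p = 0.00163). The groups did not overlap, and the call was lost with the depth covariate (adjusted p = 0.107). Tsr1, a relative of translation GTPases that guards the immature subunit, had -0.18 (adjusted p = 0.00537), a call lost with the depth covariate and with upper quartile rescaling. Ltv1 had -0.09 (-0.21 to 0.04) and was not called.

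Among 13 factors of the large subunit 7 were lower and 6 were not called. Nop2, a methyltransferase of the large ribosomal RNA, was at 4053, 3942, 3713 and 4100.4 in siCasp8 replicates 1 to 4, against 4792, 4661, 4520.1 and 4722 in Scr replicates 1 to 4 (log2 fold change -0.24, SE 0.0398, limma adjusted p = 0.000396). Ftsj3, which supports processing of the precursor, was at 4857, 4636, 4815 and 4868 in siCasp8 replicates 1 to 4, against 5453, 5454, 5113 and 5311 in Scr replicates 1 to 4 (log2 fold change -0.15, SE 0.0354, limma adjusted p = 0.00414). The groups did not overlap in either gene. The other 5 that fell were Rrp1b (-0.23), Bop1 (-0.21), Rrs1 (-0.19), which helps to dock the small 5S particle, Nip7 (-0.16) and the helicase gene Ddx18 (-0.14). Of these calls, that of Nip7 was lost in 6 of the 8 analyses without a library (adjusted p up to 0.140), that of Rrp1b without siCasp8 replicate 4 (0.0599), Scr replicate 1 (0.0536) or Scr replicate 4 (0.0596), and that of Ddx18 without siCasp8 replicate 2 (0.0557). Upper quartile rescaling left 1 of the 7 called, Nop2, as did the depth covariate.

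Gnl3, the nucleolar GTPase nucleostemin, averaged 4265 ± 179.9 in siCasp8 and 4774 ± 471 in Scr (-0.16, adjusted p = 0.0589) and was not called, though it was without Scr replicate 2 (0.0106) and with the replicate number as a block (0.0203). Pes1 (-0.08, -0.20 to 0.04), Nop16 (-0.04, -0.19 to 0.11), Mrto4 (-0.03, -0.13 to 0.08), Wdr12 (0.00, -0.12 to 0.12) and the ATPase gene Nvl (0.03, -0.10 to 0.15) were not called either. The interval of each of these 5 reaches below -0.08, the size of the Ncl call.

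Whether members of the same complex moved by different amounts was asked through their ratio within each library, which rescaling a whole library would not shift beyond the effect of the added 1. Such log2 ratios compare libraries, not the levels of the genes, since transcript lengths differ. The complexes were chosen after their values were seen. Of 18 ratios in 4 complexes, 5 did not overlap between the groups, each with an exact two-sided permutation p of 0.0286, the smallest that 4 against 4 allows. After adjustment over the 18 each of these exact p values was 0.103. With 5 ratios at that floor an adjusted p under 0.05 was out of reach, so the adjusted value says nothing about them. How often ratios of other gene pairs fail to overlap was not counted. Among single tested genes, 19.5% had every siCasp8 library below every Scr library and 18% had every one above. The 5 ratios are not separate observations, since each holds either Nop10 or Polr1b. Nop10 over Dkc1 was -0.85 ± 0.0303 in siCasp8 and -0.59 ± 0.0607 in Scr (SD, n = 4 each), a difference of -0.26 (SE 0.0339). Nop10 differed by -0.32 relative to Nhp2 and by -0.35 relative to Gar1, with all 4 siCasp8 libraries below all 4 Scr libraries. In RNA polymerase I, Polr1e over Polr1b differed by -0.35 (SE 0.107) and Polr1c over Polr1b by -0.20 (SE 0.0522), both without overlap. For Bop1, Pes1 and Wdr12, which form the PeBoW complex of large subunit maturation, the 3 ratios overlapped between groups, with differences of -0.21 for Bop1 over Wdr12 (SE 0.103) and -0.13 for Bop1 over Pes1 (SE 0.107).

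**Figure D3:**
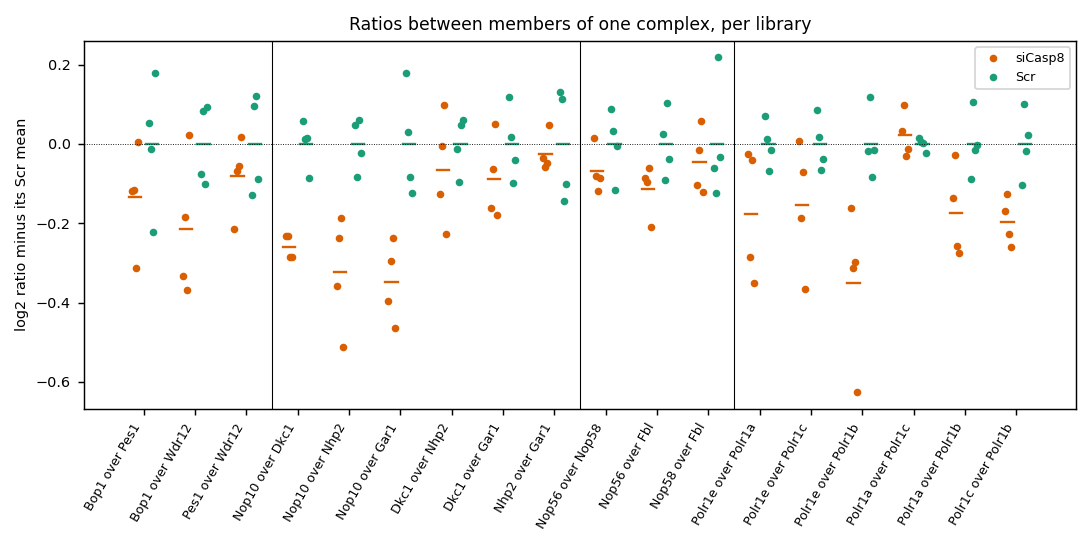
Log2 ratio between members of the same complex in each library, minus the mean of the Scr libraries (vertical axis), for 18 pairs with siCasp8 left of Scr; short lines are group means and vertical rules part the 4 complexes. The 3 ratios with Nop10 on top lie below the Scr libraries in every siCasp8 library.

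Other genes of the pathway, from 6 further lists, were described in the same way. Of 132 tested, 32 were lower (24.2%) and 6 higher; their median was -0.06 on the log2 scale, beside 26 of 45 (57.8%) and -0.16 for the members, with 20.8% of all tested genes lower. The split between lower and higher turned with scaling, to 8 lower and 21 higher after upper quartile rescaling. Of all 14154 tested genes 1665 were then lower and 4471 higher, so the turn was not particular to these lists. The split was 12 and 1 with the depth covariate, where 1475 of all tested genes were lower and 1289 higher. The difference between the members and the 132 other genes was not tested, because the members had been chosen with earlier results of these data known. Of the other small subunit processome genes 11 of 37 were lower, such as the helicase gene Ddx52 (-0.27) and Mphosph10 (-0.23), a partner of Imp4, and 2 were higher, Aatf (0.18) and Nol6 (0.19). Of the other large subunit genes 10 of 49 were lower, and those with the smallest adjusted p were Mak16, which averaged 2698 ± 131 in siCasp8 and 3446 ± 133 in Scr (-0.35), and the RNA kinase gene Nol9 (-0.22). The 3 higher ones included Nsa2 (0.24) and Las1l (0.18), the endonuclease gene of an internal spacer.

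Over all tested genes 20.8% were lower and 19.4% higher in the main analysis. Of 15 other genes of RNA polymerase I transcription, 2 were lower (13.3%): Polr2l, a small subunit shared by all 3 polymerases (-0.40), and Polr1f (-0.32). Polr1d, shared with RNA polymerase III, was higher (0.11). In the RNA exosome, which trims and degrades spacer RNA, 5 of 13 were lower (38.5%), among them the nuclease gene Dis3 (-0.23) and Exosc1 (-0.20). After upper quartile rescaling 1 was lower, beside 11.8% of all tested genes. In snoRNP assembly Naf1 (-0.18) and Znhit6 (-0.16) were lower of 10 (20%). In late small subunit maturation Dhx15 (-0.18) and the kinase gene Riok1 (-0.14) were lower of 8 (25%). Both shares were near that of all tested genes. Of 16 genes of RNA polymerase III, which makes 5S RNA and tRNA, Polr3e (-0.19) and the repressor gene Maf1 (-0.23) were lower (12.5%). The alternative subunit genes Polr3gl (0.44) and Polr3g (0.41) were higher. Upper quartile rescaling gave 0 lower and 5 higher of these 16, where 4471 of all 14154 tested genes were higher. The calls of Polr3e (-0.09, limma adjusted p = 0.0956) and Maf1 (-0.13, 0.0876) were lost there, and the depth covariate gave 0 and 0. Of 17 listed noncoding snoRNA host genes 2 were tested, and neither was called. Of the 21 genes named in these lists, 6 were still called with the depth covariate (Polr2l, Polr1f, Ddx52, Mphosph10, Mak16 and Nsa2), 13 with upper quartile rescaling, and 16 whichever library was left out. Among calls lost with the depth covariate, the log2 fold change in that analysis was 0.38 for Polr3g, 0.28 for Polr3gl, 0.27 for Nol6, -0.20 for Znhit6, 0.17 for Las1l, -0.17 for Polr3e and -0.12 for Riok1, so a lost call was not always a smaller change. The calls of Naf1, Znhit6, Riok1, Polr1d and Nol6 were each lost in at least 3 of the 8 analyses without a library.

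Genes of the ribosomal proteins themselves were also counted. Of 76 tested cytosolic ribosomal protein genes 3 were lower and 29 higher, beside 20.8% lower and 19.4% higher of all tested genes. The median of the 76 was 0.10 on the log2 scale. Upper quartile rescaling gave 57 higher and 1 lower, quantile normalization 44 and 1, and median ratio rescaling the same 29 and 3. Of all 14154 tested genes 4471 were higher and 1665 lower with upper quartile rescaling, and 2968 and 2672 with quantile normalization. The depth covariate gave 6 higher and 1 lower, where 1289 of all 14154 tested genes were higher and 1475 lower. The share higher was then near that of the whole table. The median of the 76 was 0.12 there, beside -0.003 for all tested genes, of which 10.4% were lower. Mitochondrial ribosomal protein genes had 10 of 77 lower, 4 higher and a median of -0.02; upper quartile rescaling gave 17 higher and 1 lower, where 4471 of all 14154 tested genes were higher. Many cytosolic ribosomal protein genes have near-identical processed copies in the genome, between which the authors' estimates may have split reads. The differences between these lists and the 45 members were not tested.

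**Figure D4:**
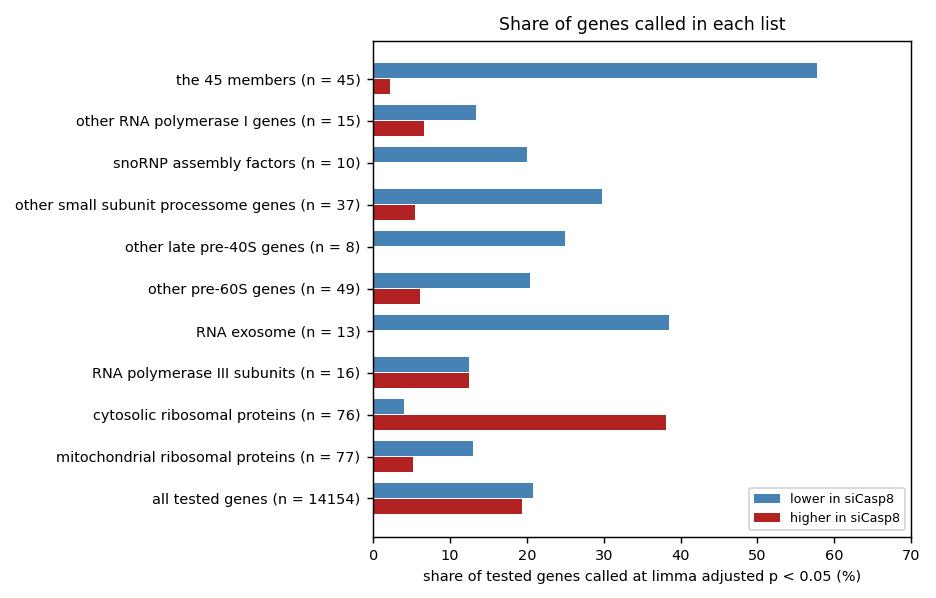
Share of tested genes called lower (blue, upper bar) and higher (red, lower bar) in siCasp8 at a limma adjusted p under 0.05, in percent, for the 45 members, 7 other lists, both sets of ribosomal proteins and all tested genes. The members have 57.8% lower, against 20.8% of all tested genes, and cytosolic ribosomal proteins have more red than blue.

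What the members share beyond their list was looked up in the promoters, since 26 of the 45 were lower. The upstream stretch of Nop2 is shown because it holds both words searched, that of Nolc1 because it holds the second only, and that of Nop56 because it holds neither. All 3 genes fell in all 17 alternatives. Each stretch ends before the GENCODE start of its own gene, and exons of other genes were not looked up for whole stretches. The words were CACGTG, the E-box that MYC and MAX and other factors bind, and CCGGAAG, the core of sites of ETS factors, each searched on both strands. The 2 words do not overlap here and are in capitals. Each stretch is the 250 bases before the annotated start, from RefSeq on GRCm38.p6, 5′ to 3′ on the gene's strand.
Nop2, chr6:125131633-125131882, plus strand: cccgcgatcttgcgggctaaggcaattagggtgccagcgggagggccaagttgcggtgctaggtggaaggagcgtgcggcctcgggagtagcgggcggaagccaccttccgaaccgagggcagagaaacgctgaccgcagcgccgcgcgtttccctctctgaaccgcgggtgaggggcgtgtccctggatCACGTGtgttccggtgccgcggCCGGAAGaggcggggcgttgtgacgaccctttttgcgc
Nolc1, chr19:46075597-46075846, plus strand: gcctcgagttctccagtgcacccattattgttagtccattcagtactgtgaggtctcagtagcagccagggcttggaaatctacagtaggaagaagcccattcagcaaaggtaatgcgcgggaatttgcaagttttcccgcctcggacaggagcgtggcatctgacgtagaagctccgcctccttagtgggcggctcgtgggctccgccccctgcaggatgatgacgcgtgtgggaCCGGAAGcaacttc
Nop56, chr2:130274162-130274411, plus strand: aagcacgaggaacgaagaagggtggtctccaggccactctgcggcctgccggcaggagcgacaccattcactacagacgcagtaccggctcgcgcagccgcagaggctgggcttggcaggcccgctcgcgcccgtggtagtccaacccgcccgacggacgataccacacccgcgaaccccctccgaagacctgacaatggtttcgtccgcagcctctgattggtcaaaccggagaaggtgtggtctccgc

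RefSeq promoter windows, from 250 bases before to 50 after the start, were given for 40 of the 45 members. The E-box stood in 10 of them and in 8.09% of all 27025 genes with a window. The 27025 were not limited to the 14154 genes tested here, to which all the members belong, so these sets are unlike. The E-box was in 5 of 22 members called lower (22.7%) and in 5 of 18 others (27.8%). The median log2 fold change was -0.10 in the 10 members with an E-box and -0.16 in the 30 without. The ETS word stood in 14 of 40 members (35.0%) and in 9.93% of all genes, in 8 of 22 called lower and in 6 of 18 others. Of 11 E-boxes, 4 lay before the start, in Nop2, Rrn3 (2) and Imp4, and 7 in the annotated 5′ UTR of Ltv1, Mybbp1a, Pes1, Tsr1, Utp20, Utp4 and Wdr43. The 4 upstream ones are shown with the E-box in capitals and 12 bases on each side; those of Nop2 and Rrn3 lay in no annotated exon, and that of Imp4 lay in an exon of Gm28306, an antisense gene.
Imp4, chr1:34439696-34439725, plus strand: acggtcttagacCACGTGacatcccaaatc
Nop2, chr6:125131811-125131840, plus strand: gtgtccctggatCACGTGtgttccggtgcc
Rrn3, chr16:13780472-13780501, plus strand: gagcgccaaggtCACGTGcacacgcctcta
Rrn3, chr16:13780639-13780668, plus strand: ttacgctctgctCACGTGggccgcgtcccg

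Myc, whose protein binds the E-box, was at 5006, 4855, 4869 and 5090.0 in siCasp8 replicates 1 to 4, against 6776, 6989, 6223 and 6323 in Scr replicates 1 to 4 (log2 fold change -0.41, SE 0.0421, limma adjusted p = 1.01e-05). The groups did not overlap. The call of Myc was not followed through the alternative analyses. Whether the fall of Myc had a part in that of the members was not tested, and a word in a window is not a bound site.

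Some members are hosts of small RNAs. In the GENCODE annotation of GRCm38, 7 of the 45 (15.6%) hold snoRNA genes on their own strand within the gene, 21 in all. Of all 22028 protein-coding genes, tested here or not, 259 (1.18%) do. The 7 were Nop56 with 5, Nop58 with 4, Ncl, Gnl3 and Wdr43 with 3 each, Tsr1 with 2 and Dkc1 with 1. All of these except Gnl3 were called lower, in Ncl by the least, beside 57.8% of the 45 members and 20.8% of all tested genes. The calls of Nop56 and Nop58 held in all 17 alternatives. Those of Wdr43, Tsr1 and Dkc1 were each lost in 2 of the 17, and that of Ncl in 11. The difference between hosts and the other members was not tested. The 45 genes lie on 18 chromosomes. For 17 of them an exon overlaps that of a gene on the other strand, among them Bysl (Ccnd3), Heatr1 (Lgals8), Nop56 (Idh3b) and Dkc1 (Mpp1), and the sources used here do not say whether estimates used strand, so reads in these overlaps cannot be told apart.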

How the data were processed

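Poly-A RNA of 8 AML12 cultures was sequenced as Illumina TruSeq libraries, per the labels' protocols. Tools listed with no role, per the submitters' processing notes, were DESeq2, sleuth, kallisto 0.44.0 and bcl2fastq 2.19, and listed builds were GRCm38 and GRCh38. The authors deposited 1 table with a signal per gene symbol that, per the file's name, is a kallisto estimate normalized with DESeq2. The annotation and the step from transcripts to genes are not given in the sources used here. A line without a symbol (0.0481% to 0.0631% of a library) was left out. Depth was estimated from the value that 1 read takes (0.773 to 1.47). Between 63.0% and 75.0% of low values lay within 0.1 read of a whole number, so whole reads were not recovered and no count test was run. No other depth is known.

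In R 4.3.3, limma 3.58.1 compared siCasp8 with Scr on log2(value + 1) with a trend, two-sided, over 14154 genes with a mean of at least 10, with Benjamini-Hochberg adjustment and calls under 0.05. Columns were matched to samples by the library name in the labels. The design text calls the cultures biological replicates; no 2 columns were identical, and p-values measure the spread between these cultures.

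The members and all lists were chosen with earlier results of these data known, so no list was tested. Values per library are given for the 2 called members of each role class that had the lowest adjusted p, separately for higher and lower, and for members called against the majority; other lists are named by the same rule. The sequences come from RefSeq and positions from GENCODE M21, both on GRCm38. The alternatives were other pseudocounts, filters and scalings, a replicate block, a depth covariate and leaving out each library.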

Additional observations from a re-analysis of the deposited data

Results flagged for a closer look

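Among 92 groups of 4 values (Casp8 and the 45 members in each treatment), 6 had a library far from the other 3 by Dixon's criterion (gap over range above 0.829), and chance flags about 1 group in 20. Wdr75 was 2208 in siCasp8 replicate 4 and 2466 to 2473 in the other 3. Mybbp1a was 10624 in siCasp8 replicate 3 and 10212 to 10240.2 in the others. Imp4 was 2813 in siCasp8 replicate 2, with 3053 to 3077 in the others, and 3520.0 in Scr replicate 2, with 3057 to 3136 in the others. Bysl was 934 in Scr replicate 3 and 1028 to 1039 in the others. Mrto4 was 984 in Scr replicate 2 and 1026 to 1029.9 in the others. Of these genes Wdr75 and Bysl were called lower, and both stayed called whichever library was left out.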

How the results depend on the processing

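Over 17 alternatives, 8 of the 27 called members kept their call in all, and 21 kept it whichever library was left out. With upper quartile rescaling 10 members were lower and 3 higher; the members' median was -0.058 beside 0.10 for all genes, and 4471 genes were higher and 1665 lower over the whole table. With estimated depth as a covariate 8 members were lower and 0 higher, the median was -0.11, and 1289 genes were higher and 1475 lower over the table. Quantile normalization gave a median of -0.12. With no filter on low values 23 members were lower and 0 higher, beside 12.3% lower of the 22264 genes then tested. Ncl turned to 0.017 with upper quartile rescaling (adjusted p = 0.771). The cause of these shifts was not tested, and siCasp8 libraries held 18706 to 18947 genes above 0, Scr libraries 17718 to 18565. Leaving out a library gave 22 to 25 members lower, 0 to 1 higher and a median of -0.17 to -0.14, and Casp8 stayed between -1.47 and -1.39. Over the table these analyses called 2536 to 2968 genes lower and 2264 to 2751 higher. Both other pseudocounts, median ratio rescaling and a mean of at least 50 gave 25 or 26 members lower. Of all tested genes 20.8% were lower with either pseudocount or median ratio rescaling. With a mean of at least 50 it was 24.6% of 11951. Median ratio rescaling gave the same 2739 genes higher and 2950 lower over the table as the main analysis. The deposited values were already normalized with DESeq2, so it was no separate check. Same-numbered libraries of the groups correlated by 0.0442 to 0.169 in their deviations, and each correlated best with its own number. These correlations were weak, but a shared effect of the replicate number was not excluded, and the main analysis did not pair the libraries. The replicate block called 25 members lower and 1 higher. Over the table it called 2868 genes higher and 3152 lower, against 2739 and 2950 without it. With 4 libraries a group, the smallest called change among the members was -0.08 on the log2 scale (Ncl).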
